A study of Mus musculus with 6 samples.

Results

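The genes described here are 42 mitosis and kinetochore genes, a list of mitotic kinases, cyclins, checkpoint, kinetochore, chromosomal passenger, spindle, cytokinesis, condensin and cohesion genes. They were chosen by name, with earlier results of these data known. All 42 are among the 34590 gene symbols of the count table and among the 17345 genes that passed the filter on low counts. The study asked how the secreted protease Adamts18 acts in the mammary epithelium, and its RNA-seq compared engrafted mammary glands. Each of 3 host mice carried WT.EGFP+ epithelium in its left gland number 4 and Adamts18-/-.EGFP+ epithelium in its right gland number 4. The hosts were WT females whose fat pads had been cleared of their own epithelium, the donors carried EGFP under the chicken beta-actin promoter, and the Adamts18 allele lacks exons 8 and 9. The age of these hosts is not given in the sources used here. Genotype and body side cannot be told apart in this layout, and neither can host mouse, graft donor and experiment. Differences between the 3 mice are therefore called mouse differences below without naming which of these they reflect.

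Mitosis is driven by Cdk1 with its A- and B-type cyclins, and Plk1 and the Aurora kinases carry the cell through spindle assembly and division. Kinetochores, protein assemblies built on the centromere, hold chromosomes to spindle microtubules, and the spindle checkpoint holds back the anaphase-promoting complex until every chromosome is attached. Most genes of this machinery are transcribed late in the cell cycle and are silent in resting cells, so in a tissue their RNA follows the share of cells that are dividing. In the mammary gland, epithelial cells divide in response to hormones, and stromal, endothelial and immune cells of the gland can divide as well. In RNA from many cells, a larger number of dividing cells and more of the RNA in each dividing cell cannot be told apart.

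Many late cell cycle genes share short promoter letters, the cell cycle genes homology region (CHR), bound by the MuvB complex, and CCAAT boxes, bound by NF-Y. RefSeq promoter sequences of GRCm38.p6, from 250 bases before to 50 bases after a gene's start, were matched by symbol to 35 of the 42 genes, with Sgol1 listed as Sgo1. Foxm1, Ccna2, Aurkb, Spc24, Incenp, Kif20a and Tpx2 were not among them. The CHR was searched as TTTGAA or TTCGAA and the CCAAT box as CCAAT, on both strands and with overlapping matches counted. CHR letters were found in 26 of 35 genes (74.3%), against 21.7% of all 27025 symbols with a promoter sequence. At least 1 CCAAT was also found in 26 of 35 genes (74.3%), against 41.1% of all symbols, and CHR letters together with at least 2 CCAAT in 14 of 35 (40.0%), against 2.68%. The 200 bases before the start are printed for 4 genes that hold both motifs and for Nuf2, which holds neither. The windows lie at chr7:135716380-135716579 (minus strand) for Mki67, chr11:99024190-99024389 (minus) for Top2a, chr9:70421555-70421754 (minus) for Ccnb2, chr19:37376182-37376381 (plus) for Kif11 and chr1:169531465-169531664 (minus) for Nuf2, and none of them overlaps an exon of the GENCODE M21 annotation. They are written 5' to 3' on the gene's strand, with CHR and CCAAT letters of either strand in capitals.
Mki67: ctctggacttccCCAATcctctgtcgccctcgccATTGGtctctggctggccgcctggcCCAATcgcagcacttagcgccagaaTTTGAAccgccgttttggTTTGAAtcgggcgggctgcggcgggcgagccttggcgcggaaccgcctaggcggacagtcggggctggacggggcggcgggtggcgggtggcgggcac
Top2a: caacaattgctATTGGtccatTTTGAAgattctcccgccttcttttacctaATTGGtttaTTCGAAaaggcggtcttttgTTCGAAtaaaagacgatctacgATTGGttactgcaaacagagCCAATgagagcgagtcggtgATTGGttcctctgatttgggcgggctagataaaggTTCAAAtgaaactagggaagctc
Ccnb2: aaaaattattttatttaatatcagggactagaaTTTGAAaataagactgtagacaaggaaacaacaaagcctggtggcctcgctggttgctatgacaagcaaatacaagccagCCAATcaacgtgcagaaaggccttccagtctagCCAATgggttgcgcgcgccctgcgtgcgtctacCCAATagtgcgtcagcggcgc
Kif11: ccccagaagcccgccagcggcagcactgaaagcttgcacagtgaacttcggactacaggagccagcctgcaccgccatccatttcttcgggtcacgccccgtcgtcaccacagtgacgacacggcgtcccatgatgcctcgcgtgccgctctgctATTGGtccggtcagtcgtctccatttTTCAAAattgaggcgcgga
Nuf2: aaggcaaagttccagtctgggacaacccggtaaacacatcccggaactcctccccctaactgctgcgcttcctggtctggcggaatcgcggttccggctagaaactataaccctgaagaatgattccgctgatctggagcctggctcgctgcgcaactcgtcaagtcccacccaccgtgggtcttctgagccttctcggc
A match is a description of the letters only and was not tested as a binding site.

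Read counts totalled between 53875123 and 71595924 per gland, so that 3 reads corresponded to between 0.0419 and 0.0557 CPM (counts scaled to the same library size in every gland, with TMM factors). Adamts18 itself had 252, 608 and 383 reads in the WT glands and 144, 295 and 202 reads in the Adamts18-/- glands of mice 1, 2 and 3. By the labels the RNA came from epithelial cells sorted for GFP, and by the study's text from glands. Markers of other cells were abundant: 8 fibroblast markers summed to between 8210 and 11078 CPM and 8 adipocyte markers to between 6200 and 16769 CPM, against 1418 to 2742 CPM for 28 pan-epithelial markers. The libraries are called glands here. Nothing in the labels says more of the 3 glands per genotype than the mouse they came from, and p-values measure the spread between these glands only.

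The 42 genes varied mainly with the mouse. Their CPM summed to 174 and 326 in the WT and Adamts18-/- glands of mouse 1, to 151 and 117 in those of mouse 2 and to 396 and 695 in those of mouse 3. The Adamts18-/- gland of mouse 3 held the highest level of 41 of the 42 genes, and the Adamts18-/- gland of mouse 2 the lowest level of 35. The highest gland exceeded the lowest by 1.08-fold (Pttg1) to 16.3-fold (Mki67), with a median of 7.41-fold. Both glands of mouse 3 lay above the 4 other glands for 36 of 42 genes, against 24.2% of all genes tested, and both glands of mouse 2 lay below the 4 others for 29 of 42, against 11.6%. The mean of the 2 glands followed the order mouse 3, mouse 1, mouse 2 for 40 of 42 genes, against 22.2% of all genes. The lowest count of any of these genes in any gland was 31 (Ttk) and the highest 7849 (Mki67), so that all of them were measured well above the level of 3 reads.

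**Figure D1:**
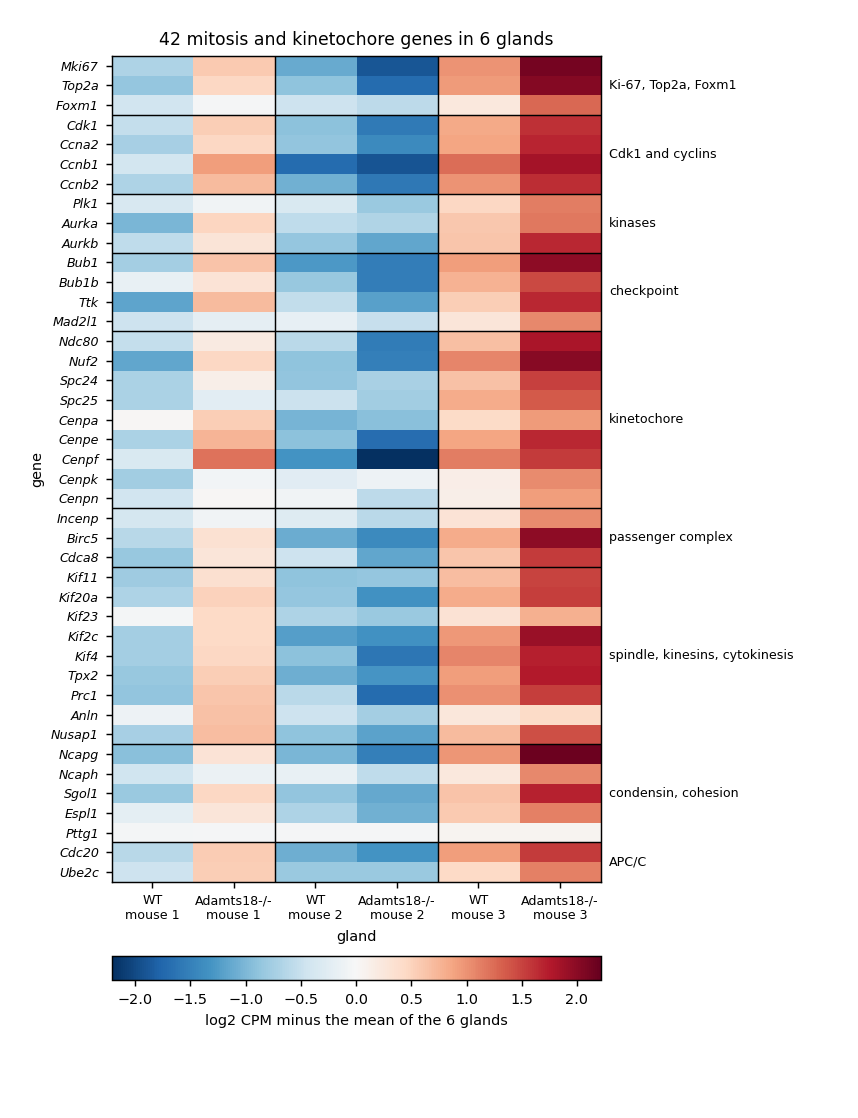
Level of each of the 42 genes (rows, grouped by role) in the 6 glands (columns, WT and Adamts18-/- gland of mice 1 to 3), as log2 CPM minus the gene's mean over the 6 glands, red above and blue below that mean. The Adamts18-/- gland of mouse 3 is highest for 41 genes and that of mouse 2 lowest for 35, whereas the Pttg1 row is nearly white.

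The split of variance showed the same order of effects. On the log2 CPM scale the mouse took 82.2% of the squared deviations summed over the 42 genes and 6 glands, genotype 6.14% and the remainder 11.6%, against 67.1%, 13.2% and 19.7% over all genes tested. Of the 5 degrees of freedom between glands, the mouse holds 2, genotype 1 and the remainder 2. In the edgeR fit with mouse and genotype as terms, the F test of the mouse gave an unadjusted p under 0.05 for 39 of 42 genes, against 27.2% of all genes. The 3 others were Ttk, Cenpn and Pttg1. After Benjamini-Hochberg adjustment over all genes, 0 of the 42 passed 0.05, against 0.628% of all genes, and the smallest adjusted p was 0.0566, for Cenpa. This adjusted count depended on the tool: DESeq2 called 38 of 42, against 19.1% of all genes, edgeR without the filter on low counts 10 of 42, against 4.5%, and edgeR scaled to the pan-epithelial markers 24 of 42, against 6.92%. Without mouse 3, the unadjusted count was 17 of 42, against 13.2% of all genes.

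Between genotypes the fitted differences were all of 1 sign, but for 39 of 42 genes the 95% interval included 0. The fitted log2 fold change, Adamts18-/- over WT, was positive for all 42 genes, from 0.0083 (Pttg1) to 0.84 (Ttk), with a median of 0.52, whereas 50.2% of all genes tested were positive with a median of 0.00065. The signs are not independent of each other, since these genes vary together over the same 6 glands. Past the thresholds of the study, a fold change under 0.8 or over its inverse (0.32 on the log2 scale) with an unadjusted p under 0.05, 3 of 42 genes were higher in the Adamts18-/- glands, against 1.17% of all genes. None was lower by DESeq2, limma-voom or edgeR, where 1.84% of all genes were lower in the edgeR fit. The 3 genes were also those with an unadjusted p under 0.05, against 3.86% of all genes. After adjustment 0 of 42 passed 0.05 in any of the 3 tools. Of all genes, 0% passed in edgeR, 71 of 17345 genes in DESeq2 and 0 in limma-voom. The smallest adjusted p of the 42 was 0.987 in edgeR's quasi-likelihood test, 0.694 in DESeq2 and 0.930 in limma-voom. For 0 of 42 genes did all 3 Adamts18-/- glands lie above all 3 WT glands, an order seen for 2.31% of all genes.

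The 3 genes that passed were Cenpa, Kif11 and Spc24. Cenpa (chr5:30666777-30674830, GRCm38, plus strand), the histone H3 variant that marks the centromere, had 10.4 and 14.8 CPM in the WT and Adamts18-/- glands of mouse 1, 4.97 and 5.35 CPM in mouse 2, and 13.7 and 19.6 CPM in mouse 3. Its Adamts18-/- gland was thus the higher one in each mouse, by 1.43-fold, 1.07-fold and 1.43-fold, and its log2 fold change was 0.38 (SE 0.13). Kif11 (chr19:37376403-37421859, plus strand), the kinesin that pushes spindle poles apart, had 4.50 and 9.98 CPM in mouse 1, 4.16 and 4.26 CPM in mouse 2, and 12.6 and 21.9 CPM in mouse 3. The pair of mouse 2 differed by 1.02-fold only, and the log2 fold change was 0.67 (SE 0.24). Spc24 (chr9:21755442-21760303, minus strand), a subunit of the Ndc80 complex, had 0.932 and 1.68 CPM in mouse 1, 0.832 and 0.924 CPM in mouse 2, and 2.45 and 4.49 CPM in mouse 3, with a log2 fold change of 0.64 (SE 0.23). The unadjusted p-values of Cenpa, Kif11 and Spc24 were 0.0388, 0.0427 and 0.0414, each with an adjusted p of 0.987 in edgeR's quasi-likelihood test. All 3 calls were lost without mouse 1, without mouse 3, with library size scaling and in a fit without the mouse as a block. DESeq2 kept Cenpa and Kif11 but not Spc24, and called Ube2c.

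**Figure D2:**
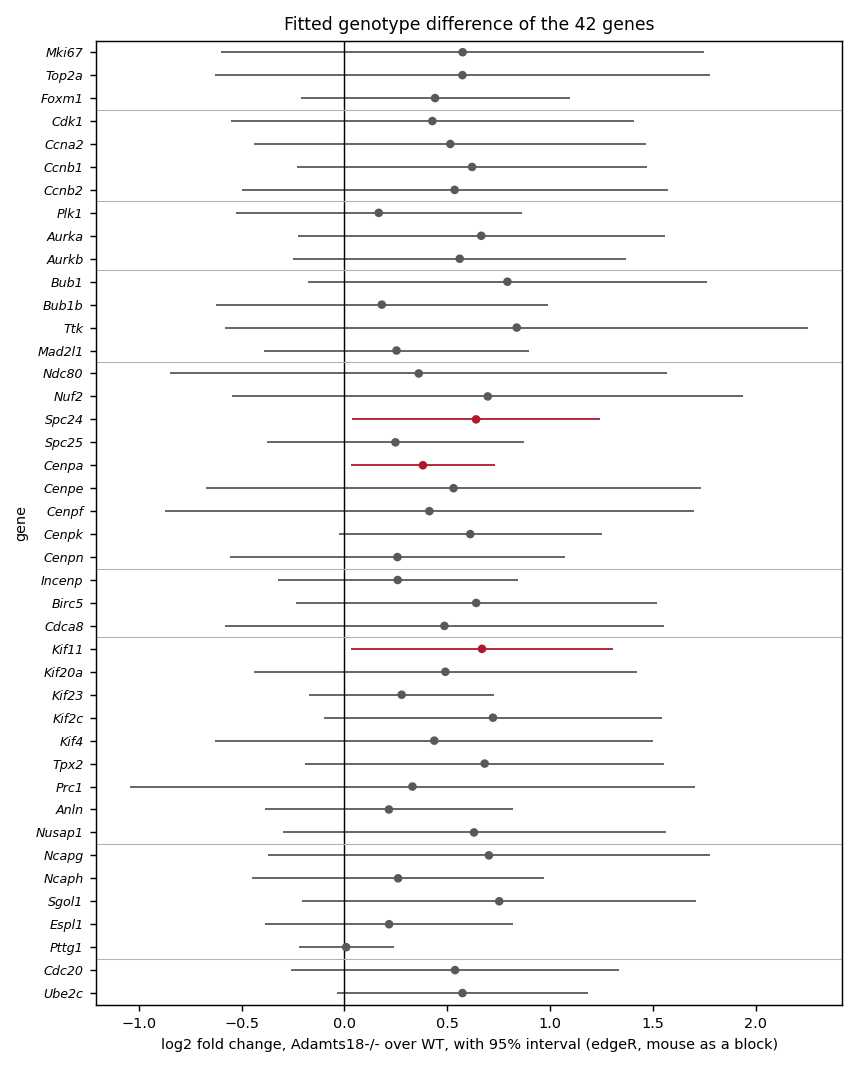
Fitted log2 fold change, Adamts18-/- over WT, of each of the 42 genes (points) with its 95% interval (lines) from the edgeR fit with mouse as a block, in red where the gene passed the thresholds of the study. All 42 points lie right of 0, and the intervals of 39 genes include 0.

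The 3 mice did not share a direction. In mouse 1 the Adamts18-/- gland had the higher level for 42 of 42 genes, with a median ratio of 2.19 and a range from 1.01 to 3.78. In mouse 2 it had the lower level for 37 of 42, with a median ratio of 0.80 and a range from 0.462 to 1.11. The 5 genes at a higher level there were Spc24, Cenpa, Cenpk, Kif11 and Ube2c. In mouse 3 it again had the higher level for 42 of 42, with a median ratio of 1.73 and a lowest ratio of 1.01. The sequence higher, lower, higher over mice 1, 2 and 3 was thus seen for 37 of 42 genes, against 14% of all genes tested, and a higher level in all 3 mice for 5 of 42, against 10.8%. With 1 gland per genotype in a mouse, the direction within a mouse has no replicate.

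**Figure D3:**
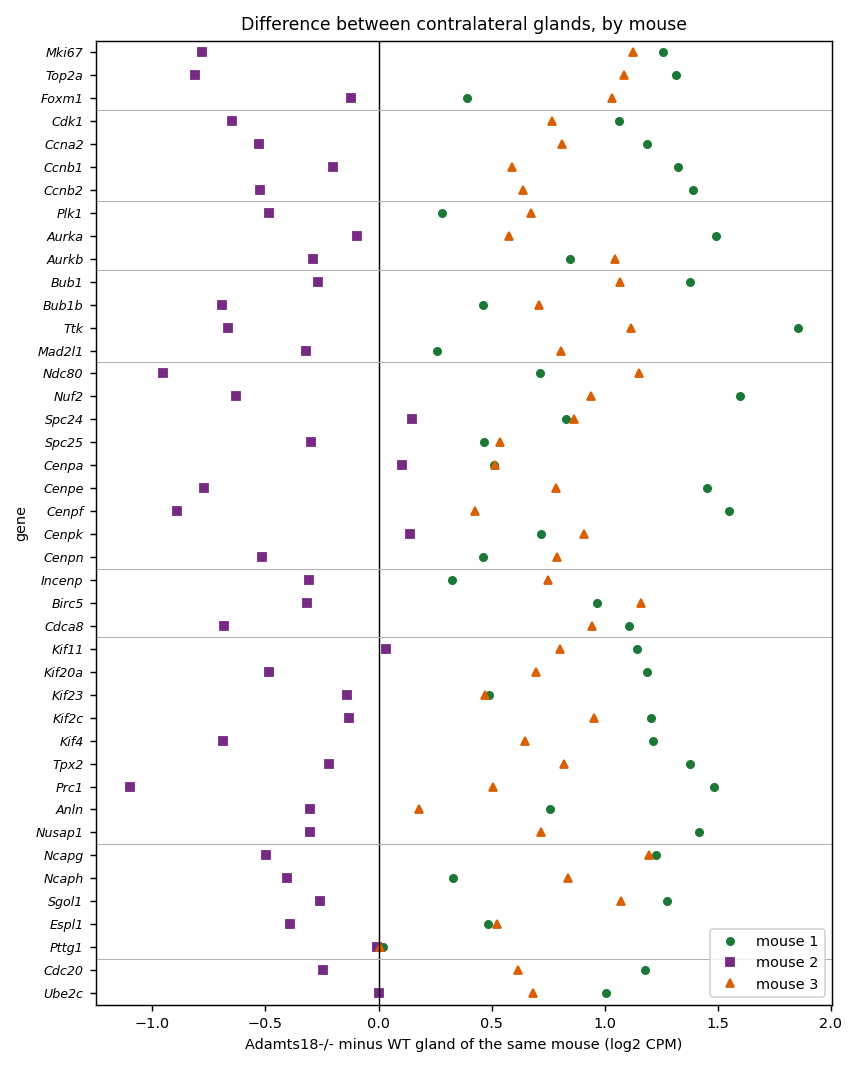
Difference in log2 CPM between the Adamts18-/- and the WT gland of the same mouse for each of the 42 genes, with mouse 1 as circles, mouse 2 as squares and mouse 3 as triangles. Circles and triangles lie right of 0 for all 42 genes and squares left of 0 for 37.

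Leaving out mouse 2 moved the genotype result the most of the 3 mice. Without it, 34 of 42 genes were higher past the thresholds, against 1.82% of all genes, with a median log2 fold change of 0.95 and a smallest adjusted p of 0.895 in edgeR. Without mouse 1 the median was 0.20 and 0 of 42 were higher past the thresholds, where 182 of 17596 genes tested were. Without mouse 3 the median was 0.36 and 0 of 42 were higher past them, where 581 of 17383 genes tested were. With all mice, limma-voom called 9 of 42 genes higher (Birc5, Bub1, Ccnb1, Cenpa, Kif2c, Kif11, Spc24, Tpx2 and Ube2c), against 1.99% of all genes. Scaling each gland to its pan-epithelial markers, whose fitted log2 fold change was negative for 28 of 28 although 19 of them were at a higher level in the Adamts18-/- gland of mouse 1, moved the median log2 fold change of all genes to 0.38 and that of the 42 genes to 0.88. On that scale 28 of 42 genes were higher past the thresholds, against 6.19% of all genes.

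Among the markers and regulators of proliferation, Mki67 (chr7:135689784-135716361, minus strand), the nuclear antigen present in cycling cells, had 18.2 and 43.5 CPM in the WT and Adamts18-/- glands of mouse 1, 13.5 and 7.85 CPM in mouse 2, and 58.6 and 128 CPM in mouse 3. The Adamts18-/- level was 2.40-fold that of the WT gland in mouse 1 but 0.582-fold in mouse 2, and the gland with 128 CPM held 7849 reads. The resulting log2 fold change of 0.57 had an SE of 0.45. Top2a, the topoisomerase that untangles replicated chromosomes, followed with 9.30 and 23.2 CPM, 9.05 and 5.15 CPM, and 32.3 and 68.6 CPM in mice 1, 2 and 3, WT gland first. Foxm1, a transcription factor of late cell cycle genes, varied less, with 5.65 and 7.42 CPM, 5.50 and 5.05 CPM, and 8.88 and 18.2 CPM. Its WT glands of mice 1 and 2 and its Adamts18-/- gland of mouse 2 lay close together. None of these 3 genes passed the genotype thresholds, where 1.17% of all genes were higher and 1.84% lower.

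Cdk1, the kinase that starts mitosis, had 3.48 and 7.32 CPM in mouse 1, 2.66 and 1.68 CPM in mouse 2, and 9.06 and 15.4 CPM in mouse 3, WT gland first here and below. Its log2 fold change was 0.43 (SE 0.37). Ccna2, cyclin A2, had 4.30 and 9.83, 3.90 and 2.69, and 13.2 and 23.2 CPM in mice 1, 2 and 3. Ccnb1, cyclin B1, had 1.98 and 5.01, 0.783 and 0.677, and 6.25 and 9.44 CPM. Its mean level in mouse 3 was 10.8-fold that in mouse 2, the widest such ratio of the 42 genes, whose median was 4.84. Ccnb2, the other B-type cyclin of the list, had 2.28 and 6.02, 1.75 and 1.20, and 7.34 and 11.5 CPM. Summed over these 4 genes, Adamts18-/- over WT stood at 2.34, 0.688 and 1.66 in mice 1, 2 and 3. All 4 genes had an unadjusted p under 0.05 for the mouse, against 27.2% of all genes. Past the genotype thresholds were 0 of 4, where 1.17% of all genes were higher and 1.84% lower.

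The kinases Plk1, Aurka and Aurkb were less uneven between mice than Cdk1 and its cyclins, with mean levels in mouse 3 at 2.66-fold, 2.92-fold and 4.74-fold those in mouse 2. Plk1, which acts from centrosome maturation to cytokinesis, had 3.15 and 3.84, 3.18 and 2.26, and 5.58 and 8.92 CPM in mice 1, 2 and 3. Aurka, the spindle pole Aurora kinase, had 1.58 and 4.49, 2.17 and 2.03, and 4.90 and 7.34 CPM, so that its lowest level was in the WT gland of mouse 1. Aurkb, the catalytic subunit of the chromosomal passenger complex, had 2.45 and 4.44, 2.01 and 1.63, and 5.61 and 11.6 CPM. Its partners in that complex were Birc5 (survivin), with 2.51 and 4.93, 1.79 and 1.44, and 6.84 and 15.3 CPM, Incenp, the scaffold, and Cdca8 (borealin). Levels of Incenp lay between 9.09 and 28.4 CPM and those of Cdca8 between 1.77 and 11.6 CPM over the glands, with the lowest level in the Adamts18-/- gland of mouse 2 and the highest in that of mouse 3. Of these 6 genes, 6 had an unadjusted p under 0.05 for the mouse, against 27.2% of all genes. Past the genotype thresholds were 0 of 6, where 1.17% of all genes were higher and 1.84% lower.

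The spindle checkpoint genes included the gene with the largest fitted genotype difference of the list. Ttk (Mps1), the kinase that starts checkpoint signalling, had 0.530 and 2.01, 0.832 and 0.512, and 1.81 and 3.97 CPM in mice 1, 2 and 3. Its log2 fold change was 0.84, with an SE of 0.54, and its Adamts18-/- gland stood at 3.78-fold the WT gland in mouse 1 and 0.615-fold in mouse 2. Bub1, a kinetochore kinase of the checkpoint, had 1.02 and 2.70, 0.701 and 0.578, and 3.30 and 6.96 CPM, and Bub1b (BubR1) lay between 2.33 and 18.9 CPM. Mad2l1, the protein that blocks the anaphase-promoting complex, was much flatter, with 5.03 and 6.02, 6.07 and 4.85, and 8.30 and 14.5 CPM. On the other side of this brake, Cdc20, the activator of the anaphase-promoting complex, had 2.70 and 6.14, 1.94 and 1.63, and 7.92 and 12.2 CPM. Ube2c, the ubiquitin-conjugating enzyme of that complex, had 4.01 and 8.11, 3.13 and 3.14, and 7.51 and 12.1 CPM. None of these 6 genes passed the genotype thresholds in the edgeR fit, where 1.17% of all genes were higher and 1.84% lower. DESeq2 called Ube2c higher, as it did 340 of 17345 genes. Limma-voom called Ube2c and Bub1 higher, against 1.99% of all genes.

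Ube2c shares 592 bases, 22.8% of its annotated exon bases, with Tnnc2 on the opposite strand. Tnnc2 encodes the troponin C of fast skeletal muscle and had 11.2 and 394 CPM in the WT and Adamts18-/- glands of mouse 1, 32.9 and 416 CPM in mouse 2, and 112 and 71.4 CPM in mouse 3. Whether the counting used strand is not given in the sources used here, and the part of Tnnc2 reads in the counts of Ube2c was not tested. Of the 42 genes, 9 share exon bases with a gene on the opposite strand in GENCODE M21, of which 6 share over 10% (Ccna2, Kif20a, Kif4, Ncapg, Prc1 and Ube2c). Ccnb1, Ccnb2 and Kif4 have an annotated pseudogene of the same name, with which reads could have been divided. Ccnb2-ps held 6 to 21 reads per gland and Kif4-ps 0 reads in every gland.

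Of the 9 kinetochore genes, 9 were on the positive side (median log2 fold change 0.41), and Cenpa and Spc24 passed the thresholds. Of all genes tested, 50.2% were on the positive side and 1.17% were higher past the thresholds. Ndc80, which binds the microtubule, had 1.55 and 2.56, 1.47 and 0.743, and 3.55 and 7.92 CPM in mice 1, 2 and 3. Its partner Nuf2 had 0.760 and 2.37, 0.913 and 0.578, and 3.68 and 7.08 CPM, and Spc25, which pairs with Spc24, reached 5.58 CPM in the Adamts18-/- gland of mouse 3. In mouse 2 the 4 subunits of this complex did not go together, since Spc24 was at 1.11-fold its WT level and Ndc80, Nuf2 and Spc25 at 0.506-fold, 0.632-fold and 0.809-fold, at counts of 51 and 56 reads for Spc24. Cenpf, a large protein of the outer kinetochore, had 3.89 and 11.5, 1.96 and 1.04, and 10.8 and 14.5 CPM. Its Adamts18-/- gland of mouse 1 lay above the WT gland of mouse 3, as in Ttk, Cenpa, Kif23, Anln and Ube2c but in none of the other 36 genes. Cenpe, the kinetochore motor, lay between 1.72 and 17.7 CPM, while Cenpk and Cenpn, of the inner kinetochore, lay between 0.602 and 2.23 CPM and between 1.37 and 3.95 CPM. Cenpa had the smallest mouse p of the 42 genes, with both glands of mouse 2 at less than 6 CPM and the 4 others at over 10 CPM.

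The 9 genes of the spindle and of cytokinesis had positive log2 fold changes with a median of 0.49. Kif11 alone passed the thresholds, where 1.17% of all genes were higher past them. Kif2c, a kinesin that takes microtubules apart at the centromere, had 1.13 and 2.66, 0.816 and 0.743, and 3.80 and 7.39 CPM in mice 1, 2 and 3. Prc1, which bundles microtubules of the central spindle, had 3.60 and 10.1, 4.35 and 2.01, and 13.4 and 19.1 CPM. It had the lowest Adamts18-/- to WT ratio of the list in mouse 2, 0.462, and one of the higher ratios in mouse 1, 2.81. Kif4, a chromosome-bound kinesin, and Kif20a, a kinesin of the central spindle had ranges of 0.726 to 7.57 CPM and 1.75 to 12.9 CPM. Tpx2, the activator of Aurka, lay between 2.11 and 17.8 CPM and Nusap1, a microtubule-binding protein, between 2.31 and 14.3 CPM. Kif23 and Anln, both of the cleavage furrow and midbody, varied least of these 9, with ranges of 5.21 to 15.8 CPM and 4.98 to 13.3 CPM. Anln was the 1 gene whose highest level was not in the Adamts18-/- gland of mouse 3 but in that of mouse 1.

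Among the genes of chromosome condensation and cohesion, Ncapg, a condensin subunit, had 1.19 and 2.83, 1.11 and 0.776, and 4.49 and 10.3 CPM in mice 1, 2 and 3. Ncaph, the other condensin subunit, was flatter, between 3.93 and 12.3 CPM. Espl1 (separase), the protease that cuts cohesin, had 5.52 and 7.74, 4.01 and 3.05, and 9.68 and 13.9 CPM, and Sgol1 (shugoshin), the protector of centromeric cohesin, lay between 0.594 and 4.44 CPM. Pttg1 (securin, chr11:43420250-43426251, minus strand), the inhibitor of separase, stood apart with 15.3 and 15.6, 15.5 and 15.4, and 16.4 and 16.5 CPM. The 6 glands differed by 1.08-fold at most, at 814 to 1070 reads, and the log2 fold change was 0.0083 (95% interval -0.22 to 0.24). Per kilobase of exon, a scale that allows levels of different genes to be compared, Pttg1 was also the most abundant of the 42 genes at a mean of 8.95 CPM per kb, followed by Cenpa and well ahead of Top2a at 4.71 and Mki67 at 4.46. The median of the list was 1.64 CPM per kb and the lowest was Sgol1 at 0.480.

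Genes with and without CHR letters overlapped in how far they varied between glands. The highest over the lowest gland had a median of 7.62-fold (2.66-fold to 16.3-fold) over the 26 genes with CHR letters and of 6.18-fold (1.08-fold to 13.9-fold) over the 9 without. Nuf2, printed above with neither motif, varied 12.3-fold and Ccnb1, with 2 CCAAT and no CHR letters, 13.9-fold, against 5.27-fold for Kif11, which holds both. For Pttg1 neither motif was found. Of the 35 genes, 9 have over 100 of the 200 bases before the RefSeq start annotated as exon in GENCODE M21 (Cenpa, Cdca8, Cenpk, Kif4, Ndc80, Nusap1, Plk1, Prc1 and Pttg1). The windows of these 9 thus do not lie before every annotated start, and 15 genes have no exon base there. Kif2c is 1 of these 15, but its window (chr4:117178773-117178972, minus strand) lies inside its annotated gene (chr4:117159639-117182639). Its CHR letters are counted among the 26.

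Other genes of the pathway were read from lists picked by function. Of 89 further mitosis gene symbols, 81 were in the table and tested, 77 of them on the positive side (median log2 fold change 0.31). The absent symbols included Knl1, Cenpu and Sgol2a, which were listed and found under their older names Casc5, Mlf1ip and Sgol2. Past the genotype thresholds, 1 of 81 was higher, near the 1.17% of all genes, and 0 were lower. This gene was Dsn1, of the Mis12 kinetochore complex (log2 fold change 0.48, SE 0.16). For the mouse, 48 of 81 had an unadjusted p under 0.05 (59.3%), against 27.2% of all genes. Their CPM summed to 1666 and 1796, 1760 and 1720, and 1816 and 2231 in mice 1, 2 and 3. The sequence higher, lower, higher over mice 1, 2 and 3 was seen for 51 of these 81 genes (63.0%), against 14% of all genes. The mouse took 79.1% of their squared deviations on the log2 CPM scale, against 67.1% over all genes. Of 42 DNA replication genes, 40 were on the positive side (median log2 fold change 0.22), and 1 of 42, Ccne2 (cyclin E2), was higher past the thresholds at 0.62 (SE 0.16), again against 1.17% of all genes. For the mouse, 21 of 42 had an unadjusted p under 0.05, against 27.2%. They summed to 417 and 436, 460 and 423, and 578 and 877 CPM. The same sequence was seen for 26 of these 42 genes (61.9%), and the mouse took 77.1% of their squared deviations. In mouse 1 the Adamts18-/- to WT ratio of this sum was 1.04, whereas that of the 42 mitosis and kinetochore genes was 1.87, and in mouse 3 the ratios were 1.52 and 1.75. The difference between the lists was not tested. Of 18 cell cycle inhibitors, pocket proteins and D-type cyclins, 12 were on the positive side (median log2 fold change 0.10) and 3 were higher past the thresholds, against the same 1.17%. They were Cdkn2a (1.13, SE 0.26), Ccng1 (0.53, SE 0.16) and Btg2 (0.46, SE 0.095), all known as brakes on the cell cycle or as p53 targets.

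Markers of several cell types moved with some of these levels. All 8 T cell markers were detected in every gland, and their sum was 33.5 and 29.4, 73.3 and 46.9, and 190 and 545 CPM in mice 1, 2 and 3. The 8 of 10 B and plasma cell marker symbols in the table (Jchain also listed as Igj) summed to 213 and 230, 501 and 342, and 1776 and 2471 CPM. Both sums were highest in mouse 3, as the 42 genes were, but were lower in mouse 1 than in mouse 2, unlike those genes. The ratio of Adamts18-/- to WT in mice 1, 2 and 3 was 1.87, 0.777 and 1.75 for the sum of the 42 genes, 0.879, 0.639 and 2.87 for T cell markers, and 1.08, 0.683 and 1.39 for B and plasma cell markers. The sum of B and plasma cell markers thus had the direction of the 42 genes in all 3 mice, and that of T cell markers in mice 2 and 3. Single B and plasma cell markers were at a higher level in the Adamts18-/- gland for 2 of 8 in mouse 1, 0 of 8 in mouse 2 and 8 of 8 in mouse 3. Of 7 germinal centre B cell marker symbols (Gcsam also listed as Gcet2), 6 were in the table and 5 were tested. Mef2b had 0 reads in at least 1 gland. The 5 tested summed to between 115 and 158 CPM, with ratios of 0.966, 0.917 and 1.08. Single ones were higher in the Adamts18-/- gland for 1 of 5 in mouse 1, 1 of 5 in mouse 2 and 3 of 5 in mouse 3. Their log2 CPM differences ran from -1.68 to 0.0027 in mouse 2 and from -0.047 to 3.05 in mouse 3.

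The 8 skeletal muscle markers, none at 0, summed to 327 and 12172, 949 and 12216, and 3102 and 2095 CPM, and so were higher in the Adamts18-/- glands of mice 1 and 2 and lower in that of mouse 3. Pan-epithelial markers, none at 0, summed to 1851 and 1805, 2372 and 1418, and 2742 and 1917 CPM, and basal markers (9 of 9, none at 0) to 1119 and 902, 1941 and 1376, and 1114 and 731 CPM. The ratio of these sums, Adamts18-/- over WT, lay under 1 in every mouse, but in mouse 1 the pan-epithelial ratio was 0.975 and 19 of the 28 single markers were at a higher level in the Adamts18-/- gland. Adipocyte markers (8 of 8, none at 0) summed to 15915 and 14164, 15525 and 16769, and 7896 and 6200 CPM. Their ratios of 0.890, 1.08 and 0.785 had the opposite direction to the sum of the 42 genes in each mouse. Single adipocyte markers were lower in the Adamts18-/- gland for 8 of 8 in mice 1 and 3. In mouse 2, 7 of 8 were higher. Macrophage markers (8 of 9 symbols in the table, Adgre1 also listed as Emr1, none at 0) lay between 1647 and 2893 CPM. Endothelial markers (8 of 8, none at 0) lay between 648 and 1041 CPM. The part of these cells in the levels of the 42 genes was not tested.

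**Figure D4:**
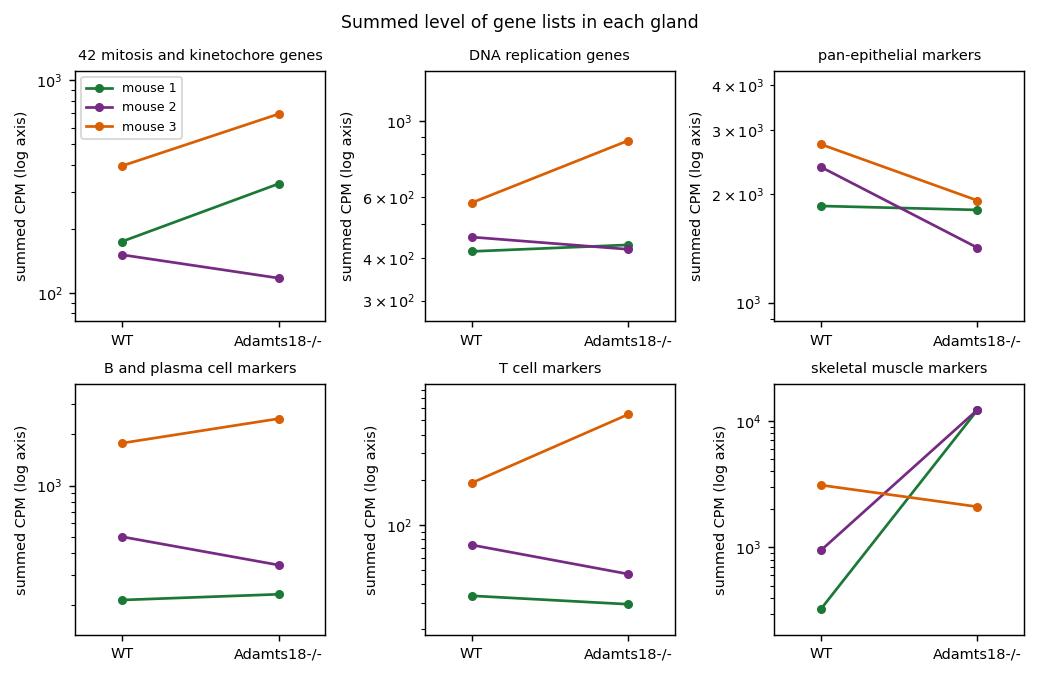
Summed CPM (log axis) of 6 gene lists in the WT and the Adamts18-/- gland of each mouse, joined by a line per mouse. The sum of the 42 mitosis and kinetochore genes is higher in the Adamts18-/- gland of mice 1 and 3 and lower in mouse 2. The sums of the B and plasma cell markers and, with ratios nearer 1, of the DNA replication genes share these directions. Of the 8 single B and plasma cell markers, however, 6 are lower in the Adamts18-/- gland of mouse 1. The sums of the T cell, pan-epithelial and muscle markers differ from these directions in at least 1 mouse.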

How the data were processed

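The deposited values are counts of reads per gene symbol as the authors made them, without scaling, from 6 glands (single-end, 85 bases, NextSeq 500). The submitters' processing notes name bcl2fastq 2.18, TopHat2 2.0.11, featureCounts 1.6.2, edgeR and the build mm9, without roles, and strand use is not given in the sources used here. Coordinates are those of GRCm38 (GENCODE M21), matched by symbol. The table holds 0 columns of other samples.

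The quasi-likelihood test of edgeR 4.0.16 (R 4.3.3) was run with TMM factors on the 17345 genes kept by filterByExpr, with Benjamini-Hochberg adjustment over them and mouse as a block, after the study's contralateral design. Contralateral glands deviated together across genes (r = 0.512, 0.505 and 0.639 for mice 1, 2 and 3). The median biological coefficient of variation was 16.3%. CPM used TMM factors, and log2 CPM a prior count of 2. The fit was tested on simulated data. The genes and lists were chosen with earlier results of these data known. Genes given with all glands were fixed representatives of each role, those past the study's thresholds and those with the extreme genotype and mouse values. Nuf2 and Ccnb2 in that form, Tnnc2 and the genes of overlap and promoter remarks were picked after their values were seen. Alternatives were DESeq2 1.42.0, limma-voom (limma 3.58.1), leaving out the block, RLE, upper quartile, library size and pan-epithelial scaling, no filter, at least 10 counts in every gland, and each mouse left out.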

Additional observations from a re-analysis of the deposited data

How the results depend on the processing

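Of the 42 genes, 3 were higher past the study's thresholds in the edgeR fit. The count was 0 with no replicate block, 9 by limma-voom, 0 with library size scaling, 28 with pan-epithelial scaling, and 0 to 34 with a mouse left out. Genes with a negative log2 fold change numbered 0 in that fit, 1 with upper quartile scaling, 1 with library size scaling, 1 without the filter, and 0 to 6 with a mouse left out (3 without mouse 1, 6 without mouse 3). The median log2 fold change lay between 0.20 and 0.95 with a mouse left out and was 0.69 with no replicate block. By adjusted p for the mouse, 0 genes became 38 by DESeq2 (19.1% of all genes), 24 with pan-epithelial scaling (6.92%) and 10 without the filter (4.5%). By unadjusted p, an alternative set chosen after seeing the data, 39 became 17 without mouse 3, while the share of all genes went from 27.2% to 13.2%. Other mitosis genes past the thresholds, 1 in the edgeR fit, were 0 with no replicate block, 6 by limma-voom, 29 with pan-epithelial scaling, 2 without the filter and 0 to 34 with a mouse left out. DNA replication genes, also 1, were 0 with no replicate block, 7 with pan-epithelial scaling and 0 to 6 with a mouse left out. Over all genes tested, 203 were higher in the edgeR fit, 218 with no replicate block, 345 by limma-voom, 167 with library size scaling and 1073 with pan-epithelial scaling. Without the filter 352 were higher, and 182, 319 and 581 without mice 1, 2 and 3. In the same order, 319, 125, 343, 364, 28, 416, 481, 214 and 286 were lower. With a mouse left out, the log2 fold changes that turned negative included, without mouse 3, those of Plk1 (-0.089 to 0.48), Mad2l1 (-0.024 to 0.54) and Ndc80 (-0.062 to 0.95). Without mouse 1 they included those of Cenpf (-0.20 to 0.99) and Prc1 (-0.27 to 0.99). That of Pttg1 was -0.0015 with upper quartile scaling, -0.017 with library size scaling and -7.9e-05 without the filter. The causes of these shifts were not tested. Each of the 42 genes had at least 31 reads in every gland, and the number of mice, 3, limits the genotype comparison.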
